A study of Capsicum chinense with 22 samples.

Results

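Ripe fruits of 2 red and 2 yellow accessions of the pepper Capsicum chinense were compared at 60 days after anthesis (DAA), the day a flower opens. The comparison took the 11 pericarp RNA-seq libraries of that stage, out of 22 in the series, and every one of the 16922 genes of the deposited table. For each gene the mean of the 2 red accession means was set against the mean of the 2 yellow accession means. The red accessions were Hab, the pungent cultivar Habanero (2 libraries), and Biq, the non-pungent cultivar Biquinho (3 libraries). The yellow accessions were the germplasm accessions A101, pungent (3 libraries), and A18, non-pungent (3 libraries). The genotype and the stage are given by the sample labels, and colour and pungency by the study's description of the accessions. All plants were grown in a greenhouse without any treatment, and one replicate was pericarp of several fruits from one plant. The other 11 libraries hold the same accessions as unripe fruit at 20 DAA and were used here only where a difference in ripe fruit was set against the unripe fruit.

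Each colour is represented by a pair of accessions, so colour cannot be told apart from anything else that the 2 red accessions share and the yellow ones lack. The pairs Hab with A101 and Biq with A18 each hold pungency constant, and pair values are given for many of the genes below. The values are variance-stabilised expression (VST) on a scale close to log2, with the mean of each gene over the 22 libraries subtracted. A value of 0 is therefore the gene's own average over both stages, and levels cannot be compared between genes. All differences below are red minus yellow on this scale, on which a difference of 1 is close to a doubling in well expressed genes and understates the change in weakly expressed ones. The reads were quantified against the genome of C. annuum Zunla-1, a related species. The paper names its red fruit as a potential source of bias in comparisons by colour, and reports high correlations with a C. chinense reference. Any effect of the reference on the differences below was not tested.

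Ripening pepper fruits turn chloroplasts into chromoplasts. Chlorophyll is broken down through a pathway that starts with STAY-GREEN and pheophytinase and continues with pheophorbide a oxygenase, while the light-harvesting apparatus is lost. Carotenoids are made from geranylgeranyl diphosphate, the first committed step being phytoene synthase. Desaturases, isomerases and cyclases then give beta-carotene, hydroxylases and epoxidases give zeaxanthin and violaxanthin, and capsanthin/capsorubin synthase converts these epoxides into the red ketocarotenoids typical of Capsicum. Yellow fruits can result in this genus from a lack of any of several of these steps.

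The 11 ripe libraries separated by accession and by colour. Of the variance over all genes, 43.0% lay between the colours, 46.4% between the accessions of one colour and 10.6% between libraries of one accession. The first principal component, with 44.0% of the variance, placed the 5 red libraries between 32.64 and 51.79 and the 6 yellow libraries between -45.34 and -23.66. The second component, with 27.2%, split Hab (50.09 and 50.59) from Biq (-44.95 to -37.36), while A101 and A18 lay between them. The 2 red accessions were farther apart (distance 94.3 over all genes) than the 2 yellow ones (71.3), and Hab stood farthest from A101 (108). Biq was about as far from A101 (94.2) as from Hab, and nearer to A18 (91.3). Libraries of one accession were at most 44.3 apart. Median values of the ripe libraries lay between -0.09 and -0.04, and the SD over genes was 1.00 and 1.01 in the Hab libraries against 0.74 to 0.90 in the others. Read depth is not known from the table.

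**Figure D1:**
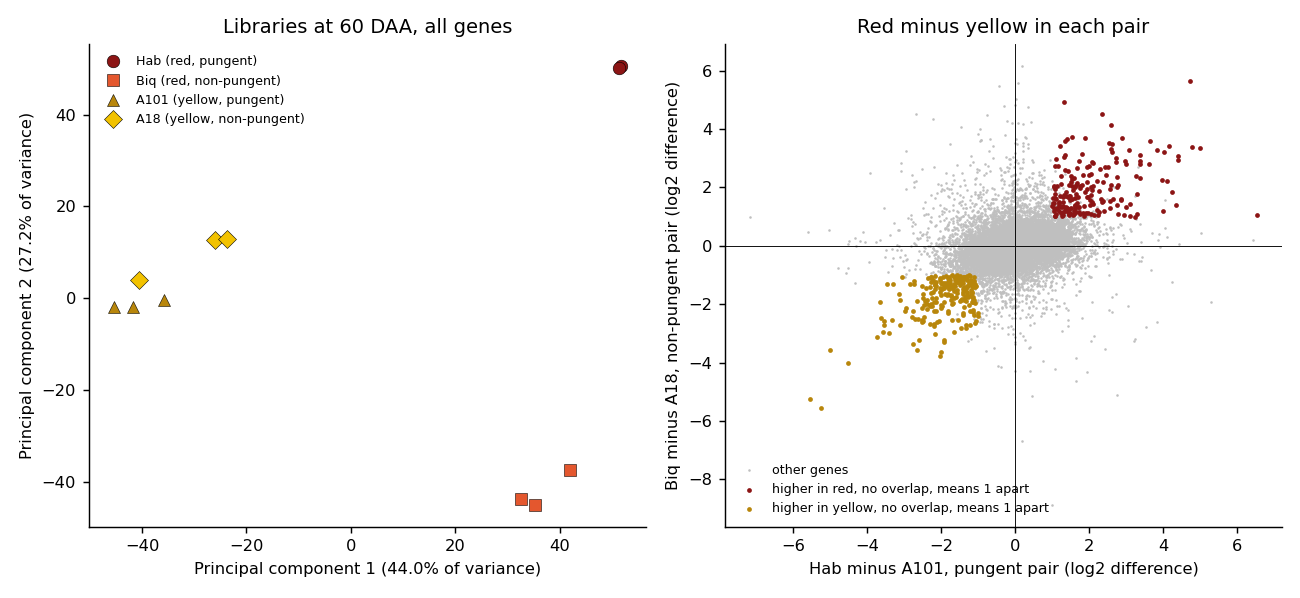
Left, the 11 ripe libraries on the first 2 principal components of all genes (axes with the percent of variance), with red and yellow libraries on opposite sides of the first and Hab and Biq at opposite ends of the second. Right, each gene's log2 difference in the pungent pair (Hab minus A101) against the non-pungent pair (Biq minus A18), where the coloured points are 191 and 223 genes chosen for lying apart, which sets their place in the corners.

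At an adjusted p under 0.05 (limma, Benjamini-Hochberg) and a difference of at least 1, 684 genes were higher in red fruit (4.04% of the genes tested) and 767 higher in yellow fruit (4.53%). The standard errors behind these calls come from libraries of one accession, so a call can rest on a single accession. In the pungent pair, 1473 genes were higher in Hab (8.7%) and 1573 in A101 (9.3%). In the non-pungent pair, 863 were higher in Biq (5.1%) and 789 in A18 (4.66%). Of the 684 genes higher in red, 263 passed in both pairs, 242 only in the pungent pair and 177 only in the non-pungent pair, and in 63 the pairs differed in sign. Of the 767 genes higher in yellow, 272 passed in both pairs, 327 only in the pungent pair and 167 only in the non-pungent one, and in 72 the pairs differed in sign. For scale, 300 genes were higher in the pungent accessions (1.77%) and 312 in the non-pungent ones (1.84%).

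A narrower set was used to pick the genes described first. Every red library lay above every yellow library in 2007 genes (11.9%) and below in 1718 genes (10.2%), whatever the size of the difference. Adding the call and a gap of at least 1 between the nearest red and yellow accession means left 191 genes higher in red (1.13%) and 223 higher in yellow (1.32%). Of these, 36 and 74 have no descriptive name. In 18.8% and 15.7% of them, against 7.62% of all genes, 3 or more of the 22 libraries shared the lowest value, so that the size of the difference depends on the floor of the transformation. Across all genes the differences in both pairs correlated weakly (Pearson r = 0.27 over 16922 genes, which are not independent replicates), and 60.3% of genes had the same sign in both.

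Among the separated genes with a name that were higher in red, the largest difference was in acidic 27 kDa endochitinase (LOC107859803), a pathogenesis-related enzyme that cleaves chitin. Its values were 2.54 and 2.61 in Hab, 2.60, 3.09 and 2.79 in Biq, -1.95, -2.20 and -2.33 in A101, and -3.02, -2.52 and -2.94 in A18. The red libraries lay close together, far above every yellow library. The difference was 5.19 ± 0.26 (SE, adjusted p = 7.64e-12), with 4.73 in the pungent and 5.64 in the non-pungent pair. Of 94 defense proteins, 16 were higher in red (against 4.04% of all genes) and 2 in yellow (2.13%, against 4.53%), with a median of 0.17 against 0.01 for all genes. Proteinase inhibitor PSI-1.2 (LOC107855896) was higher in red by 2.53, whereas aspartic protease inhibitor 10-like (LOC107861071) had -2.82 and stood at its lowest value in all red libraries. A defensin-like protein (LOC107854042) was called at 2.25, but its level in A101 (2.60 ± 0.30, SD) matched the red accessions (2.31 ± 0.20 in Hab, 3.56 ± 0.36 in Biq), and only A18 was low (-1.23 ± 0.07).

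Next among the genes higher in red came 1-aminocyclopropane-1-carboxylate oxidase (ACC oxidase, LOC107857536), which catalyses the last step of ethylene synthesis. It read 2.90 and 2.84 in Hab, 0.61, 0.25 and 0.72 in Biq, -2.29, -1.97 and -2.14 in A101, and -2.80, -2.82 and -2.86 in A18. Hab was the highest and A18 the lowest accession, without overlap between the colours. The difference was 4.18 ± 0.13 (adjusted p = 1.56e-14), with 5.00 in the pungent and 3.35 in the non-pungent pair. In unripe fruit the 4 accession means of this gene lay between 0.46 and 0.82. Ripe fruit was above its own unripe fruit only in Hab (0.82 at 20 DAA), while Biq was close to its unripe level (0.62 at 20 DAA, 0.53 at 60 DAA) and A101 and A18 were below theirs.

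Of 74 members of the ethylene list, 8 were higher in red (10.8%, against 4.04% of all genes) and 3 in yellow (4.05%, against 4.53%), and the median was 0.06. The list holds 14 genes named as ACC oxidase or its homologs, of which 2 were higher in red and 1 (LOC107854980, -1.75) higher in yellow. The factor RAP2-12 (LOC107876051), an activator of responses to low oxygen in Arabidopsis, was higher in red by 1.79 ± 0.11 and separated the colours. Of 4 receptors, 2 were called higher in red. A called member, 24-methylenesterol C-methyltransferase 2 (LOC107840596, 1.47), entered the list through its name alone and belongs to sterol synthesis. TOE3 (LOC107868117), an AP2-like factor, had a difference of -3.09 ± 0.79 that came from Hab, at -5.88 ± 0.11 (SD), while Biq at 1.02 ± 0.50 lay beside A101 and A18 (1.29 and 0.04).

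**Figure D2:**
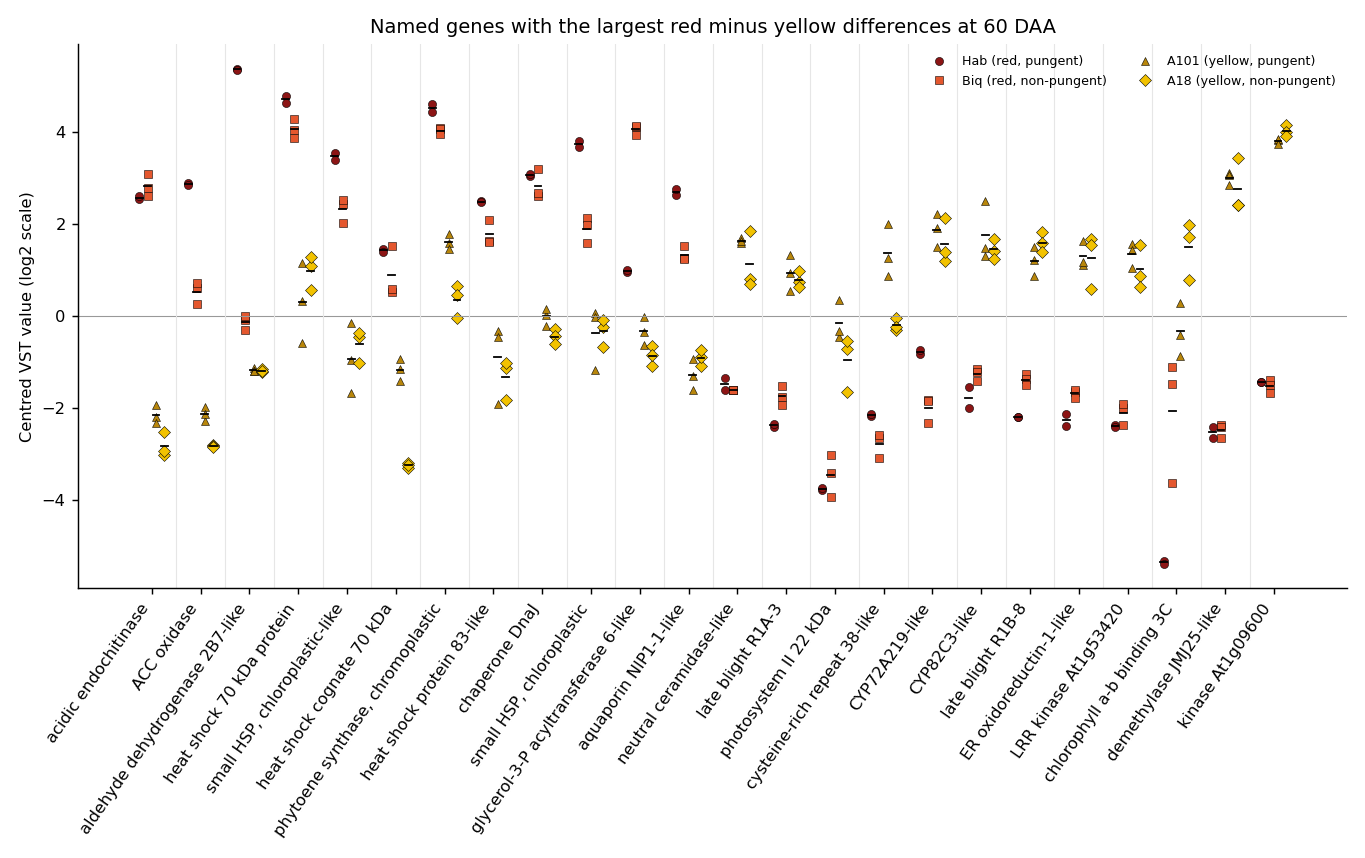
The 24 named genes with the largest differences among those without overlap of the colours, 12 in each direction. Each point is a library at 60 DAA, bars are accession means, and the y axis is the centred VST value (log2 scale). In aldehyde dehydrogenase 2B7-like the red mean is carried by Hab, while in kinase At1g09600 the accessions of each colour nearly coincide.

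Of the lists other than tissue markers, heat shock proteins had the largest share called higher in red. These chaperones hold or refold proteins, and their genes are induced by heat and other stress as well as during the ripening of some fruits. Of 67 members, 23 were higher in red (34.3%) and 1 in yellow (1.49%), against 4.04% and 4.53% of all genes, and the median was 0.47. At 20 DAA, 1 of the 67 was higher in red (against 1.69% of all genes) and 7 in yellow (against 3.37%), with a median of -0.24. By kind, 11 of 16 small heat shock proteins, 3 of 15 HSP70 proteins, 3 of 8 members of the HSP90 family, 1 of 4 ClpB proteins and 3 of 17 heat stress transcription factors were higher in red. Small heat shock proteins had a median of 1.91, with 2.75 in the pungent and 0.85 in the non-pungent pair. The heat stress transcription factors had a median of -0.16. This grouping by kind was made after the values were seen.

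Heat shock 70 kDa protein (LOC107862051) read 4.77 and 4.64 in Hab, 4.03, 3.88 and 4.28 in Biq, -0.59, 1.15 and 0.33 in A101, and 1.08, 0.56 and 1.29 in A18. Every red library was far above the highest yellow library, although the A101 libraries were spread widely. The difference was 3.75 ± 0.21 (adjusted p = 2.95e-11), with 4.41 and 3.09 in the pairs. A chloroplastic small heat shock protein-like gene (LOC107867615) differed by 3.67 ± 0.32, another (LOC107867608) by 3.17, an HSP90-family gene (LOC107863207) by 3.24, and heat shock cognate 70 kDa protein (LOC107847347) by 3.36. The cochaperone DnaJ (LOC107867386), not part of the list, was higher by 3.18 ± 0.11, with Hab and Biq at 3.06 and 2.83 and A101 and A18 at -0.01 and -0.45. The one member that was higher in yellow was a mitochondrial HSP90 (LOC107878126, -1.10). Averaged over the 67 members, the level was 0.88 to 0.96 in Hab, 0.40 to 0.50 in Biq, -0.33 to 0.16 in A101 and -0.08 to 0.03 in A18.

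Carotenoid synthesis genes went both ways. Of 20 measured genes, 2 were higher in red (10%, against 4.04% of all genes) and 4 in yellow (20%, against 4.53%). The median was -0.48, so most members had the lower value in red fruit (13 of 20). The called genes were the chromoplastic phytoene synthase and capsanthin/capsorubin synthase on one side and violaxanthin de-epoxidase, zeaxanthin epoxidase, prolycopene isomerase and CYP97B2 on the other.

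The bifunctional 15-cis-phytoene synthase, chromoplastic (LOC107868281), the fruit form of the enzyme that makes phytoene, showed the clearest difference. It read 4.61 and 4.43 in Hab and 4.08, 4.06 and 3.95 in Biq. In A101 it read 1.79, 1.59 and 1.46, and in A18 0.65, 0.46 and -0.05. The order was Hab, Biq, A101, A18, with more than 2 between the lowest red and the highest yellow library. The difference was 3.29 ± 0.13 (adjusted p = 2.44e-13), 2.90 in the pungent and 3.68 in the non-pungent pair. In unripe fruit the 4 means lay between -2.94 and -1.89, so the gene was higher in ripe than in unripe fruit in every accession, and the colour difference grew by 2.46 from 20 to 60 DAA (adjusted p = 8.85e-09). Phytoene synthase 2 (LOC107859651), a paralog, had a difference of -0.77, below the required size and opposite in direction.

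Capsanthin/capsorubin synthase (LOC107875664), the enzyme that makes the red pigments, was not low in the yellow fruit. It read 5.94 and 5.95 in Hab, 7.10, 6.99 and 7.10 in Biq, 5.13, 5.95 and 5.73 in A101, and 4.95, 4.90 and 5.03 in A18. Hab overlapped with A101, Biq was the highest and A18 the lowest. The mean difference of 1.22 ± 0.24 (adjusted p = 0.000274) therefore came from the non-pungent pair (2.10), while the pungent pair gave 0.34 (adjusted p = 0.444). All 4 accessions had risen from means between -6.36 and -5.54 at 20 DAA. With quantile normalisation the difference fell to 0.05 and the call was lost.

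The called genes on the yellow side act later in the pathway than phytoene synthase. Violaxanthin de-epoxidase (LOC107850430), which turns violaxanthin back into zeaxanthin, read -1.78 and -1.67 in Hab, -1.54, -1.86 and -1.86 in Biq, 0.49, 0.54 and 0.60 in A101, and 0.24, -0.30 and -0.31 in A18. Both red accessions were below both yellow ones in every library, and the difference was -1.95 ± 0.10 (adjusted p = 5.99e-12), with -2.27 and -1.63 in the pairs. Zeaxanthin epoxidase (LOC107860302), the reverse enzyme, differed by -1.49 ± 0.13 and prolycopene isomerase (LOC107848237), which makes all-trans-lycopene, by -1.45 ± 0.12, with the lowest level of the latter in Hab (-2.04) and an intermediate one in Biq (-0.79). A second gene of that name (LOC107854534) had -0.94. CYP97B2 (LOC107873618), of a family of carotene hydroxylases, had -1.06 ± 0.07.

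The remaining 14 members stayed under a difference of 1. Beta-carotene hydroxylase 1 (LOC107863219) had 0.79, with all red libraries (3.66 to 4.19) above all yellow ones (2.49 to 3.61). Lycopene epsilon cyclase (LOC107840923), which opens the lutein branch, had -0.77 and LUTEIN DEFICIENT 5 (LOC107850957) -0.73, both without overlap. Between -0.56 and 0.31 lay NEOXANTHIN-DEFICIENT 1, beta-carotene hydroxylase 2, phytoene desaturase, zeta-carotene isomerase, both genes for zeta-carotene desaturase, carotene epsilon-monooxygenase and both lycopene beta cyclases (LOC107869983 and LOC107843894). Of 16 genes for isoprenoid precursors none was called, and the median was -0.18. The list of plastoglobule and chromoplast proteins had 2 called members of 21, which were again phytoene synthase and capsanthin/capsorubin synthase.

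Genes that cleave carotenoids or make abscisic acid were mixed. Of 22, 2 were higher in red (9.09%, against 4.04% of all genes) and 5 in yellow (22.7%, against 4.53%). NCED3-like (LOC107846808), whose enzyme commits epoxycarotenoids to abscisic acid, was higher in red by 1.40 ± 0.07, which was carried by Hab (2.06 against 0.13 in Biq and -0.31 and -0.28 in A101 and A18). Of the beta-carotene isomerase D27 genes, LOC107851932 had -2.24 ± 0.15 and LOC107863814 had 1.37 ± 0.18. The carotenoid cleavage dioxygenase 1-like gene (LOC107839360) had -1.10 and abscisic acid 8'-hydroxylase 4 (LOC107840293), which inactivates the hormone, -1.08.

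**Figure D3:**
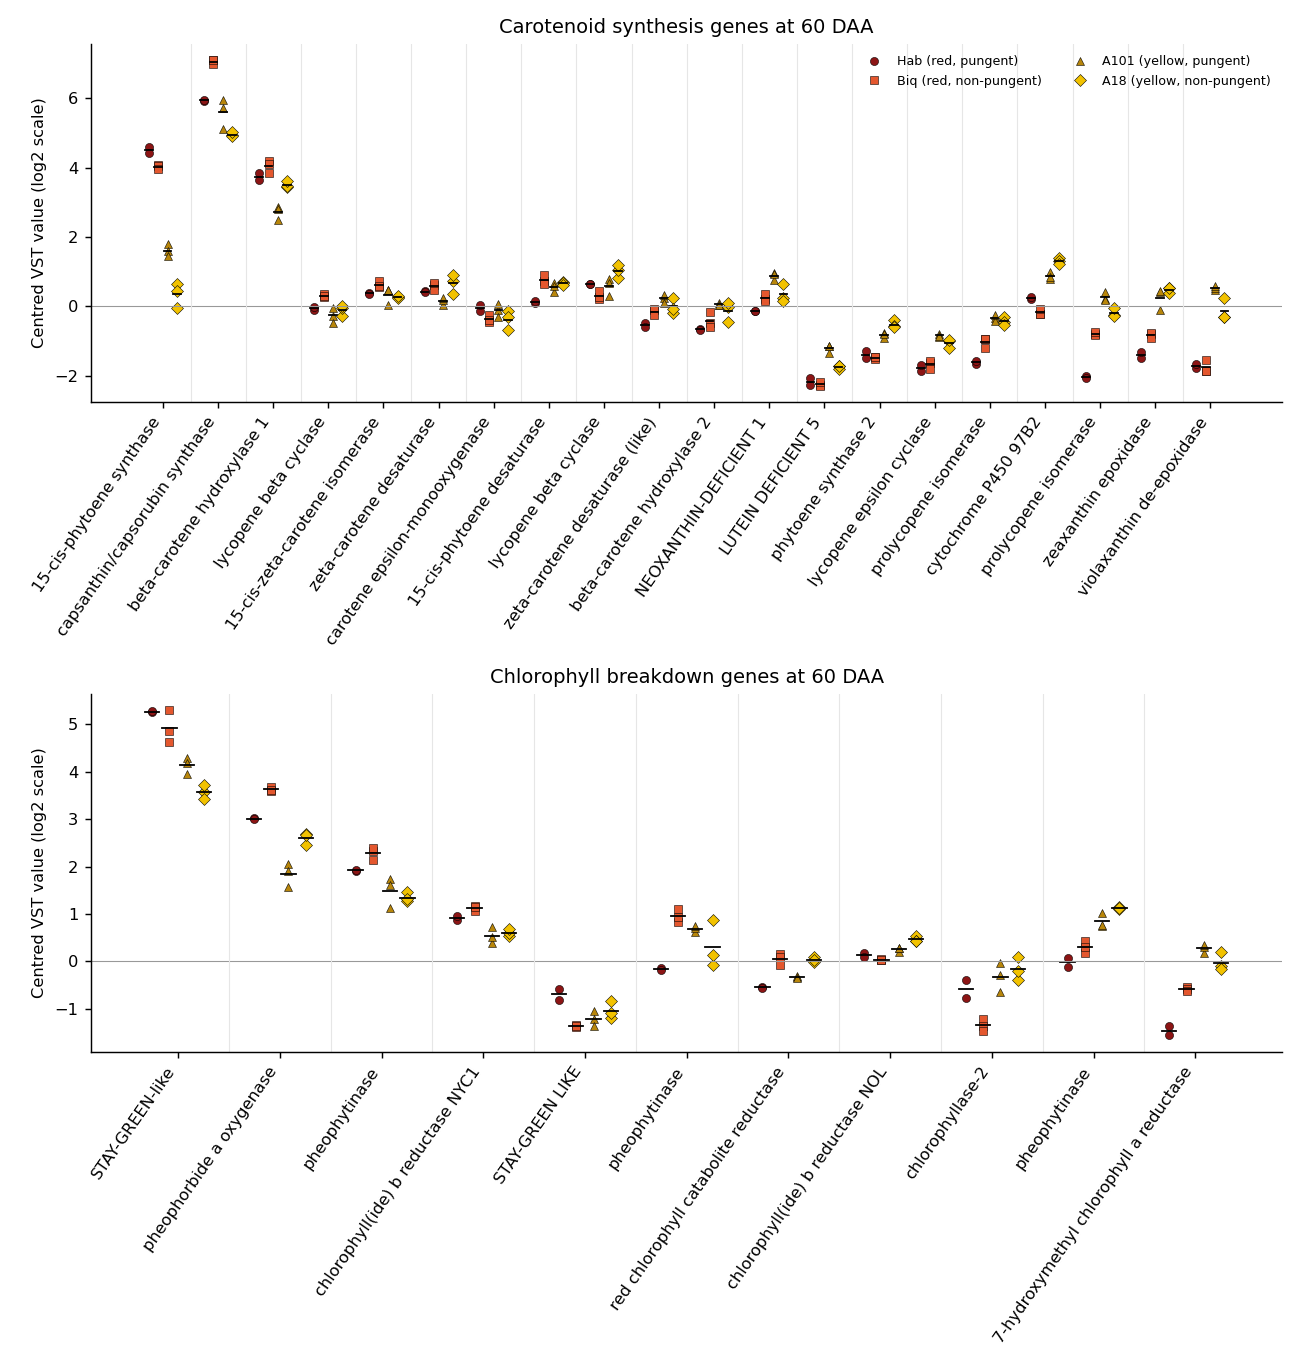
All 20 carotenoid synthesis and 11 chlorophyll breakdown genes, ordered by the red minus yellow difference. Each point is a library at 60 DAA, bars are accession means, and the y axis is the centred VST value (log2 scale). Phytoene synthase separates the colours by 3.29, capsanthin/capsorubin synthase in Hab overlaps with A101, and most of the other genes differ by less than 1.

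Differences of chlorophyll breakdown genes ranged from -1.15 to 1.24, against -1.95 to 3.29 for carotenoid synthesis. Of 11 members, STAY-GREEN (LOC107866321) and pheophorbide a oxygenase (LOC107847505) were higher in red, and 7-hydroxymethyl chlorophyll a reductase (LOC107864536, -1.15 ± 0.11) in yellow. The share higher in red was above the 4.04% of all genes, and the share higher in yellow was 9.09%, against 4.53%. STAY-GREEN, the magnesium dechelatase that starts the breakdown, read 5.26 and 5.27 in Hab, 4.85, 5.30 and 4.63 in Biq, 3.94, 4.29 and 4.17 in A101, and 3.57, 3.72 and 3.42 in A18. The colours did not overlap, and the difference was 1.24 ± 0.11 (adjusted p = 1.54e-08), with 1.13 and 1.35 in the pairs. Pheophorbide a oxygenase, which opens the chlorophyll ring, differed by 1.10 ± 0.12. Both calls were lost under quantile normalisation, with 0.29 and 0.53. None of the other 8 was called. The 3 pheophytinase genes gave -0.84 (LOC107858508), -0.10 (LOC107859084) and 0.68 (LOC107854913), and the chlorophyll b reductases NYC1 (LOC107877925) and NOL (LOC107838960) gave 0.45 and -0.28. Chlorophyllase-2 (LOC107853614) had -0.72, STAY-GREEN LIKE (LOC107867750) 0.09 and red chlorophyll catabolite reductase (LOC107868112) -0.11.

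Photosynthesis genes were higher in the ripe yellow fruit. Of 63 genes for photosystems, light harvesting and Rubisco, 22 were higher in yellow (34.9%, against 4.53% of all genes). Higher in red was 1 (1.59%, against 4.04%), while 58 of 63 had a negative difference, and the median was -0.77. The difference was larger in the non-pungent pair, with a median of -1.37 and 39 genes higher in A18, than in the pungent pair, with -0.34 and 14 genes higher in A101. Of all genes, 4.66% were higher in A18 and 9.3% in A101. The mean level over the list was -0.46 to -0.02 in A18, -0.97 to -0.60 in A101, -1.33 to -1.29 in Hab and -1.91 to -1.14 in Biq. At 20 DAA, 52 of the 63 were already higher in the yellow accessions (against 3.37% of all genes), with a median of -2.21.

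Chlorophyll a-b binding protein 3C (LOC107868438), a light-harvesting antenna protein, had the largest difference of the list. It read -5.32 and -5.39 in Hab, -1.47, -3.63 and -1.10 in Biq, -0.88, 0.29 and -0.42 in A101, and 1.71, 0.79 and 1.97 in A18. The Biq libraries were spread widely, and the highest of them lay just below the lowest A101 library. The difference was -4.29 ± 0.33 (adjusted p = 3.23e-09). Photosystem II 22 kDa protein (LOC107872990), the PsbS protein of heat dissipation, differed by -3.05 ± 0.19. A Rubisco small chain (LOC107860051) had -2.35 ± 0.16 because of Biq alone, at -5.17 against -0.30 in Hab, -0.74 in A101 and -0.04 in A18. The one member higher in red (LOC107839061) came from Biq as well, at 1.67 with the other 3 means between -1.45 and -1.31. Members of these families are near copies of each other, so reads may have been shared among them in the quantification.

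Chlorophyll synthesis genes had 5 of 27 higher in yellow (18.5%, against 4.53% of all genes) and none in red (against 4.04%). The median was -0.36. Protochlorophyllide reductase (LOC107855028) had -1.89 ± 0.24, magnesium-protoporphyrin IX monomethyl ester cyclase (LOC107844048) -1.73 and geranylgeranyl diphosphate reductase (LOC107862250), which makes the phytol tail, -1.63. At 20 DAA, 7 of the 27 were higher in yellow (against 3.37% of all genes). Calvin cycle glyceraldehyde-3-phosphate dehydrogenases had the same direction, with -2.48 for subunit B (LOC107851146), -1.72 for a second gene of that subunit (LOC107866774) and -2.02 for subunit A (LOC107870368).

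Among regulators of plastid development, 4 of 24 were higher in yellow (16.7%, against 4.53% of all genes) and 1 in red (4.17%, against 4.04%). APRR2 (LOC107869180), a two-component response regulator-like factor linked to pigmentation of pepper and tomato fruit, read -3.81 and -4.33 in Hab, -3.42, -3.77 and -3.39 in Biq, -0.65, -2.08 and -1.63 in A101, and -1.07, -1.06 and -0.93 in A18. Every red library was more than 1 below every yellow one. The difference was -2.56 ± 0.19 (adjusted p = 1.35e-09), while at 20 DAA it was -0.52 and not called. GLK1-like (LOC107845460), a chloroplast development factor, had -1.19 ± 0.26 with overlap between Biq and the yellow accessions, and without the lowest Biq library it was -0.90 and no longer called. B-box protein 19 (LOC107840478) had -1.25 and CONSTANS-LIKE 2-like (LOC107861235) 1.57.

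The 2 largest differences in the direction of yellow fruit were in regulators of other kinds. The probable serine/threonine-protein kinase At1g09600 (LOC107867973) read -1.44 and -1.43 in Hab, -1.39, -1.69 and -1.5 in Biq, 3.83, 3.85 and 3.73 in A101, and 4.14, 4.0 and 3.92 in A18. Its level was nearly one value in the red and one in the yellow libraries, with -5.39 ± 0.07 between them (adjusted p = 1.58e-20). At 20 DAA all 4 means lay between -1.69 and -1.24, so it was high in ripe yellow fruit and in none of the other groups. The lowest value was shared by 5 of the 22 libraries.

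The lysine-specific demethylase JMJ25-like (LOC107853986), named for an Arabidopsis histone demethylase, differed strongly at both stages. It read -2.41 and -2.66 in Hab, -2.36, -2.42 and -2.66 in Biq, 3.10, 2.86 and 3.07 in A101, and 3.43, 2.41 and 2.42 in A18. Red and yellow libraries lay far apart, with a difference of -5.39 ± 0.14 at 60 DAA and -4.48 at 20 DAA, a change of -0.91 (adjusted p = 0.000939) that stayed below the required size. Its lowest value was shared by 4 libraries. Neutral ceramidase-like (LOC107863501, -2.92) and late blight resistance protein homolog R1B-8 (LOC107847882, -3.19) also differed at both stages, with -3.36 and -3.64 at 20 DAA. Their lowest values were shared by 9 and 3 libraries.

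The other named genes higher in yellow were LRR receptor-like kinase At1g53420 (LOC107868399, -3.43), endoplasmic reticulum oxidoreductin-1-like (LOC107840450, -3.26), which forms disulfides in secretory proteins, the cytochromes P450 82C3-like (LOC107851968, -3.12) and CYP72A219-like (LOC107854232, -3.11), a cysteine-rich repeat secretory protein (LOC107842282, -3.06) and late blight resistance protein homolog R1A-3 (LOC107860163, -2.92). On the red side they were aldehyde dehydrogenase 2B7-like (LOC107848079, 3.80), glycerol-3-phosphate 2-O-acyltransferase 6-like (LOC107870623, 3.12), which makes cutin precursors, and aquaporin NIP1-1-like (LOC107859207, 3.11). Aldehyde dehydrogenase 2B7-like was carried by Hab, at 5.36 against -0.13 in Biq and -1.18 and -1.19 in A101 and A18, and the acyltransferase by Biq, at 4.06 against 0.98 in Hab. Among genes without a descriptive name, LOC107870525 (4.08) and LOC107874108 (3.79) were highest in red, and LOC107878048 (-4.26) and LOC107856446 (-3.06) in yellow.

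Disease resistance genes, mostly intracellular receptors of the nucleotide-binding leucine-rich repeat class, had more calls in yellow than in red. Of 178 members, 24 were higher in yellow (13.5%, against 4.53% of all genes) and 4 in red (2.25%, against 4.04%), and the median was -0.36. In the pungent pair, 50 were higher in A101 and 2 in Hab (median -0.61), where 9.3% and 8.7% of all genes were called. In the non-pungent pair, 18 were higher in A18 and 10 in Biq (median -0.05), where 4.66% and 5.1% of all genes were called. Of 77 late blight resistance homologs, 11 were higher in yellow and 1 in red. Of the 24 genes, 10 were also higher in yellow at 20 DAA, among them R1A-3 (LOC107852233, -2.62 at 60 DAA and -1.25 at 20 DAA). A called member, R1B-16 (LOC107841000, 2.25), was high in Hab only, at 3.53 with the other 3 means between -1.02 and -0.89. A TMV resistance protein N-like gene (LOC107851268, 1.77) was high in Biq only. Family members with nearly the same sequence may share reads.

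Lists of organic acid metabolism and respiration had positive medians, but only the respiration list had few called members. Of 53 organic acid genes, 9 were higher in red, a larger share than the 4.04% of all genes. In yellow 2 were higher (3.77%, against 4.53%), and the median was 0.46. Under quantile normalisation 5 were higher in red. The 9 included 3 of 5 ATP-citrate synthase subunits (the 5 ranged from 0.39 to 1.08), whose enzyme splits citrate in the cytosol, and 2 of 5 aconitate hydratases (the 5 ranged from -0.74 to 1.26, with medians of -0.69 in the pungent and 0.50 in the non-pungent pair). 2-Oxoglutarate dehydrogenase (LOC107870252), an enzyme of the citric acid cycle, had 1.34 ± 0.11 (adjusted p = 4.77e-09), with red libraries at 0.39 to 0.58 and yellow libraries at -1.14 to -0.48. NADP-dependent malic enzyme-like (LOC107842298) had 2.72 ± 0.52, most of it from Hab (4.05 against 0.64 in Biq), and phosphoenolpyruvate carboxykinase-like (LOC107867324) 1.59, from Biq (3.74 against -0.85 in Hab). The peroxisomal citrate synthase 3 (LOC107878469, -2.02) and glyoxysomal malate dehydrogenase (LOC107840119, -1.43) were higher in yellow. Of 80 respiration chain genes only the mitochondrial ATP synthase subunit beta-like gene (LOC107854659, 1.14) was called (1.25%, against 4.04% of all genes), while 65 of 80 had a positive difference and the median was 0.39, with 0.51 and 0.26 in the pairs. Under quantile normalisation that median was 0.27.

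Sugar and starch genes gave few calls (at most 3.45% of a list each way, against 4.04% and 4.53% of all genes). Of 37 sucrose genes, 1 was higher in red, acid beta-fructofuranosidase AIV-18 (LOC107863437), the vacuolar invertase that splits sucrose, at 1.47 ± 0.18 and without overlap (red 2.49 to 3.23, yellow 0.81 to 1.99). SWEET10-like (LOC107856010), a sugar exporter, had 1.43 and polyol transporter 5-like (LOC107866783) -1.06 among 29 carriers. The starch list had 1 gene called in each direction of 40, alpha-amylase (LOC107867836, 1.10, from 1.93 in the pungent and 0.27 in the non-pungent pair) and the small subunit of ADP-glucose pyrophosphorylase (LOC107878514, -1.01), the latter at the edge of the threshold. Its median was -0.38, and 34 of 40 differences were negative.

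Of 95 cell wall genes, 9 were higher in red (9.47%, against 4.04% of all genes) and 3 in yellow (3.16%, against 4.53%). The median was 0.07. Pectate lyase 18 (LOC107862632) had 2.20 ± 0.21, mostly from the pungent pair (4.12 against 0.29), polygalacturonase inhibitor-like (LOC107861456) 2.00 ± 0.14 and expansin-like B1 (LOC107850933) 1.76, the last from Biq only. Polygalacturonase-2 (LOC107843830), the pectin-degrading enzyme of ripening, read 3.91 and 3.81 in Hab, 1.58, 1.17 and 0.94 in Biq, 4.75, 5.23 and 4.67 in A101, and 4.83, 4.26 and 3.81 in A18. Biq was low and Hab touched the range of A18, so the difference of -2.05 ± 0.16 rested mostly on the non-pungent pair (-3.07 against -1.02). A second such gene (LOC107868178, -1.49) and xyloglucan endotransglucosylase/hydrolase 31-like (LOC107847799, -1.56) were also low in Biq only and higher in Hab than in A101.

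Of 42 flavonoid genes, 7 were higher in yellow (16.7%, against 4.53% of all genes), none of them with overlap between the colours, led by anthocyanidin 3-O-glucosyltransferase 5-like (LOC107854671, -2.31), anthocyanin 5-aromatic acyltransferase-like (LOC107845634, -2.13) and a further glucosyltransferase 5 (LOC107861323, -1.64), and 1 in red (LOC107871066, 2.12, named as an isoflavanone dehydratase). Of 70 phenylpropanoid genes, cinnamoyl-CoA reductase 2 (LOC107839792, 1.18), caffeoyl-CoA O-methyltransferase 6 (LOC107840262, 1.00) and caffeoylshikimate esterase-like (LOC107871471, -1.24) were called. Their shares were 2.86% in red and 1.43% in yellow, against 4.04% and 4.53% of all genes. AGL8 homolog (LOC107855404), a MADS-box factor of the FRUITFULL kind that acts in tomato ripening, was higher in red by 1.42 ± 0.11, with accession means of 3.13, 2.35, 1.47 and 1.18 in Hab, Biq, A101 and A18. With quantile normalisation it had 0.97 and the call was lost. AGL31 (LOC107850791) had 1.89, and these were the only 2 of 31 MADS-box genes called (6.45%, against 4.04% of all genes). NAC transcription factor 56 (LOC107845296, 1.11) and a NAC78-like gene (LOC107850240, 1.04) were higher in red, and a second NAC78-like gene (LOC107864833, -1.97) and NAC domain-containing protein 2 (LOC107873003, -1.32) in yellow, of 23. The last is not the paper's ripening factor CaNAC2, a different gene to which the paper gives the same name. The NAC calls were 8.7% of that list each way, against 4.04% of all genes in red and 4.53% in yellow. MYB48 (LOC107848119, -1.68) was the 1 of 40 MYB genes called (2.5%). WRKY31 (LOC107878211, 1.49) and WRKY20 (LOC107863706, -1.28) were the 2 of 23 WRKY genes called (4.35% each way, near the shares of all genes).

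Cytosolic ribosomal protein genes gave few calls too (0.92% in red and 0.46% in yellow, against 4.04% and 4.53% of all genes). Of 218 members, 2 were higher in red, led by 60S L10-like (LOC107877503, 1.94), and 1 in yellow, 40S S11-like (LOC107869399, -2.49), which differed by -2.51 at 20 DAA. Of 89 organelle-type ribosomal protein genes, 6 were higher in yellow (6.74%, against 4.53% of all genes), led by chloroplastic 30S S13 (LOC107856146, -2.91 ± 0.12) and 30S S1 (LOC107864483, -2.01). Of 87 genes matched by the names of common references, 8 were higher in red (9.2%, against 4.04% of all genes). In yellow 6 were higher (6.9%, against 4.53%), and the median was 0.19. Actin-100 (LOC107840006) was among the called genes, at 1.58 ± 0.15 and without overlap, and so was a polyubiquitin-like gene (LOC107850407, 2.15), low in A101 (-1.30). The largest calls toward yellow were the Calvin cycle glyceraldehyde-3-phosphate dehydrogenases given above, which entered the list through their names alone.

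**Figure D4:**
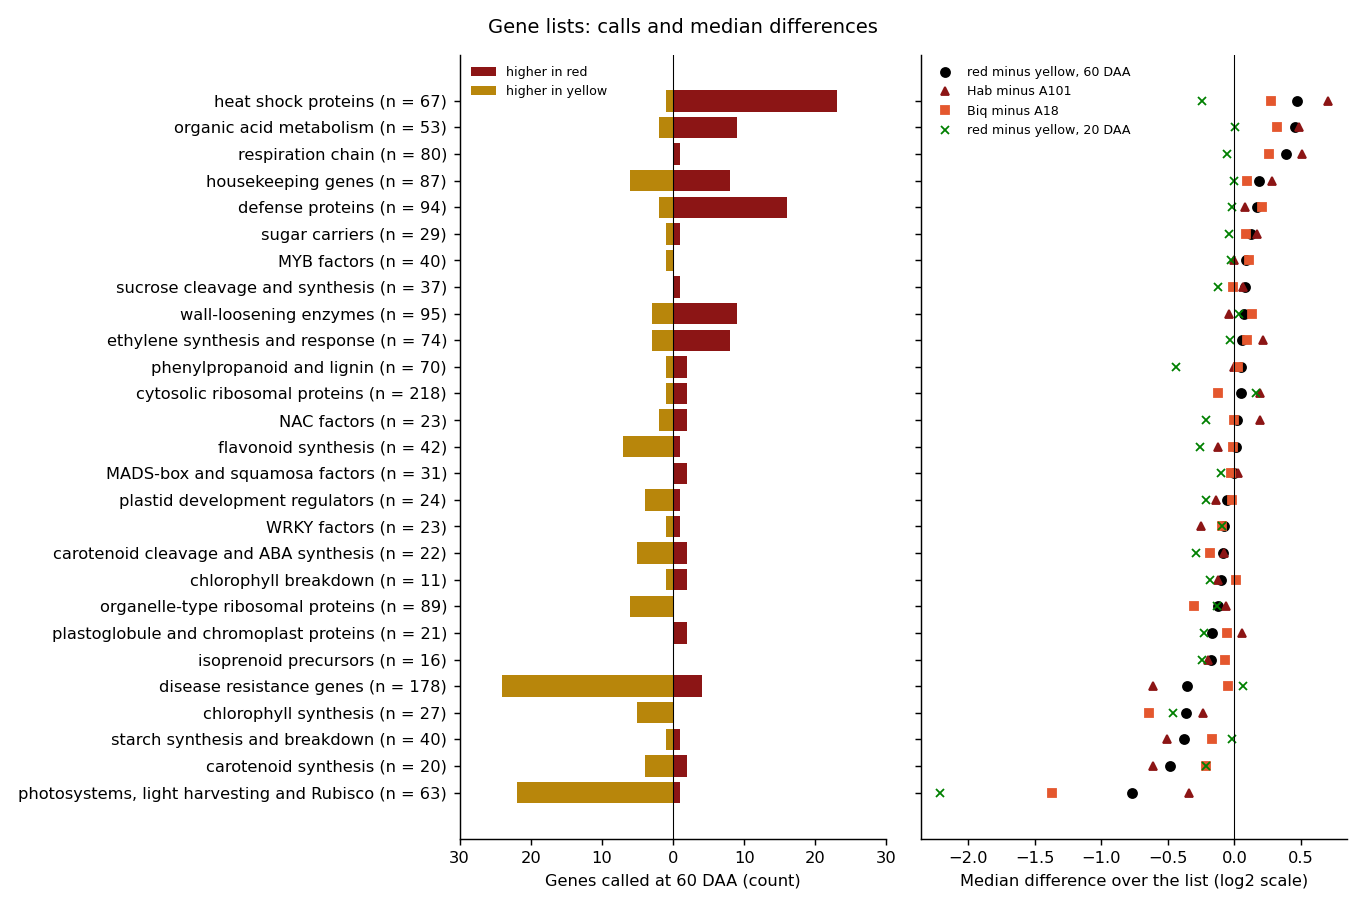
Left, the members of each gene list called higher in red (bars to the right) or yellow (to the left) at 60 DAA, the most being 23 heat shock proteins in red, and 24 disease resistance and 22 photosynthesis genes in yellow. Right, the median log2 difference of each list for red minus yellow at 60 DAA (circles), each pair (triangles and squares) and red minus yellow at 20 DAA (crosses), with the photosynthesis median at -2.21 at 20 DAA and -0.77 at 60 DAA.

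The ripe pericarp was checked with marker genes. Polygalacturonase-2, STAY-GREEN and capsanthin/capsorubin synthase were above their own average in all 11 libraries. The remaining marker, STAY-GREEN LIKE (LOC107867750), entered through its name and was below its average in all of them (-1.38 to -0.59). The 4 ripe pericarp markers together averaged 2.79 to 3.61 per library. The 9 vascular markers averaged -1.20 to -0.75, and none was called. The 6 seed markers averaged 0.70 to 1.78 in A101, 0.59 to 1.13 in Biq, -0.34 to 0.56 in A18 and -0.47 to -0.27 in Hab. None of them was called between the colours, but 5 of 6 were higher in A101 than in Hab (median -1.49), and in the non-pungent pair 3 were higher in Biq and 1 in A18 (median 1.12). Their part in the pair differences was not tested. No gene name of the table matched the placenta markers, so that tissue was not checked. In bulk tissue, fewer cells of a type and less RNA per cell cannot be told apart.

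Most genes called for colour in ripe fruit were not called in unripe fruit. A gene without a call could still differ at 20 DAA, as phytoene synthase (0.83) and photosystem II 22 kDa protein (-0.84) did. At 20 DAA, 286 genes were higher in red (1.69%) and 570 in yellow (3.37%). Of the genes higher in red at 60 DAA, 86 were also called at 20 DAA, which is 12.6% of the ripe and 30.1% of the unripe list. For genes higher in yellow the number was 195, or 25.4% and 34.2%. Opposite calls at the stages were found for 22 genes higher in red and 5 higher in yellow at 60 DAA.

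The difference between the stages was tested directly. The red minus yellow difference was more positive at 60 than at 20 DAA in 1079 genes (6.38%) and more negative in 783 (4.63%). Of the 191 separated genes higher in red, 150 were also called in this test in the same direction, and 31 were already called at 20 DAA. Of the 223 higher in yellow, these counts were 120 and 81. Since the 60 DAA libraries enter both the choice of these genes and the test, the counts are given as a description. From 20 to 60 DAA, 121 of the 191 rose in both red accessions and 48 in both yellow ones, while of the 223, 107 fell in both red accessions and 48 in both yellow ones.

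**Figure D5:**
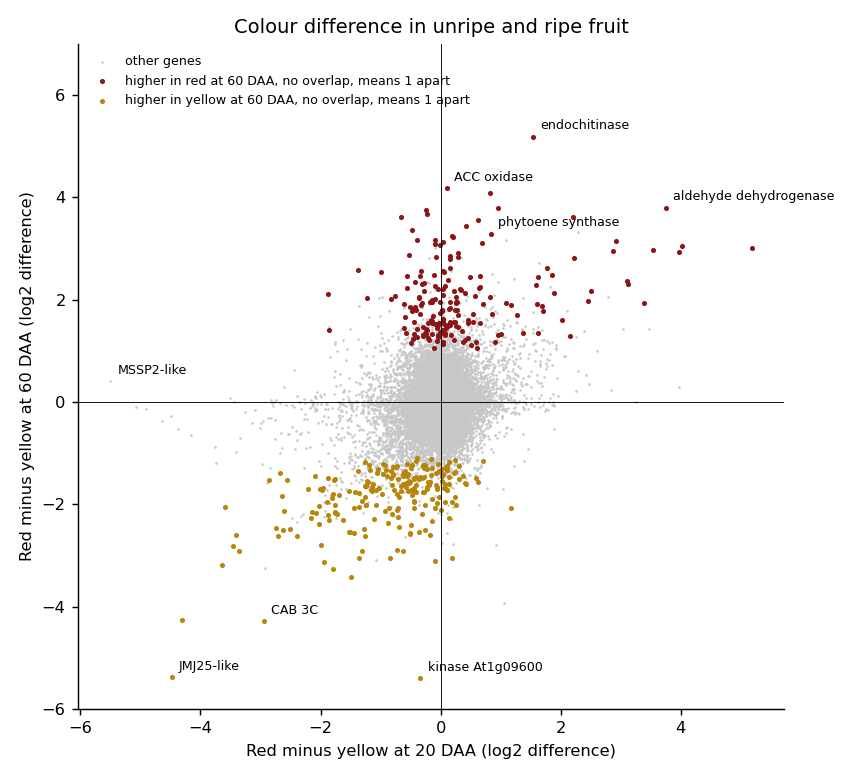
Each point is a gene, with the red minus yellow log2 difference at 20 DAA on the x axis and at 60 DAA on the y axis. Coloured points are the 191 and 223 genes selected at 60 DAA, which sets their distance from 0 on the y axis, and phytoene synthase, ACC oxidase and kinase At1g09600 lie within 1 of 0 at 20 DAA, while JMJ25-like lies at -4.48 and aldehyde dehydrogenase 2B7-like at 3.75.

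The largest stage dependence toward red was found for genes that differed in unripe and not in ripe fruit. Monosaccharide-sensing protein 2-like (LOC107859760), a vacuolar sugar carrier family, had -5.50 at 20 DAA and 0.40 at 60 DAA, a change of 5.90 (adjusted p = 5.59e-12). Chlorophyll a-b binding proteins 21 (LOC107855780) and 1B (LOC107855776) had -5.08 and -4.90 at 20 DAA, against -0.10 and -0.14 in ripe fruit, where all accession means had come down to between -2.24 and -1.68. In the other direction, kinase At1g09600 changed by -5.06, metallothionein-like protein type 2 (LOC107873510), a metal-binding protein, by -4.99 and the gene named titin (LOC107860678) by -3.72. The ripe difference of the metallothionein (-3.94) was due to Biq, at -2.71 against 4.86 in Hab, 3.87 in A101 and 6.16 in A18.

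A few called genes had one accession far from the other of its colour. Salicylic acid-binding protein 2-like (LOC107840333) was at 6.36 in Hab and -0.47 in Biq. Lipid transfer protein EARLI 1-like (LOC107867449) was at 7.45 in Hab and 4.78 in A101, the pungent accessions, and at 0.71 and -1.31 in Biq and A18. The defensin Ec-AMP-D1-like gene (LOC107855074) showed the opposite split, at 2.23 and 1.18 in Biq and A18 and -3.86 and -4.81 in Hab and A101. Both were nevertheless called for colour, with 2.35 and 1.00. Histone deacetylase 6 (LOC107845594, 3.32) was low in A101 alone, at -4.31 with the other means between 2.11 and 2.89, and it was low there at 20 DAA as well (-4.53). Cathepsin B-like (LOC107858946, -2.57) was high in A101 alone, at 4.66, with 15 of 22 libraries at its lowest value. Glutathione S-transferase U9-like (LOC107864633, -1.19) was highest in A18, at 3.53, and cytochrome P450 89A2-like (LOC107862944, -1.19) lowest in Biq, at -2.10 against 5.50 in Hab.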

How the data were processed

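Pericarp RNA of 22 libraries (4 accessions at 20 and 60 DAA) was sequenced by the authors as paired reads. Per the study's methods and submitters' processing notes, reads were trimmed with fastp 0.23.1 and quantified with Salmon 1.6.0 against C. annuum Zunla-1. The authors removed genes with low counts and made the deposited log2-scale VST values with R 4.2.0 and DESeq2 1.36.0, and each gene is centred. The table gives no depth.

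Values were used as deposited. A linear model with 8 group means over 22 libraries (14 residual degrees of freedom) was fitted with limma 3.58.1 in R 4.3.3, and p-values were adjusted over 16922 genes. A call needs adjusted p under 0.05 and a difference of at least 1. p-values measure spread between libraries of an accession, not between accessions; with accessions as units (2 against 2) an exact permutation test could not go below 0.333. The fit was tested on simulated data in which only the spread between libraries was random, so that test cannot speak to spread between accessions.

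Libraries were assigned to groups by the column headings (accession and stage, without replicate numbers). Lists (27, and 4 of markers) were made by matching gene names. Members and lists were chosen with earlier results of these data known. Named genes were the 12 largest differences in each direction with a descriptive name, among those called, without overlap and with accession means 1 apart (and 2 in each direction without a name), up to 3 called members per list and direction, all carotenoid synthesis and chlorophyll breakdown genes, 3 in each direction with the largest change between stages, and, per accession, the called genes farthest from the other accession of its colour. Alternatives are given in the closing section. Of 16922 genes, 1290 had 3 or more libraries sharing the lowest value. Among named genes this number of libraries was 14 for LOC107851268, 11 for LOC107874108 and 8 for LOC107870525. It was 9 for LOC107850933, LOC107854042, LOC107855896 and LOC107869399, and 7 for LOC107839061, LOC107864833 and LOC107868178. It was 6 for LOC107861071 and LOC107870623, 5 for LOC107861323 and LOC107878048, and 3 for LOC107855776, LOC107862051 and LOC107864633. Coordinates and sequences were not used here. Tables and plots were made with Python 3.11.15, pandas 2.3.3, numpy 2.4.6 and matplotlib 3.10.9.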

Additional observations from a re-analysis of the deposited data

Results flagged for a closer look

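The colour difference was tested against stage, and it differed between 20 and 60 DAA in 1079 genes toward red and 783 toward yellow (limma, adjusted p under 0.05 and a change of at least 1). Changes of the genes described above are given here as the difference at 60 DAA minus that at 20 DAA. Among genes higher in ripe red fruit, the change was 4.07 for ACC oxidase LOC107857536, 4.0 for heat shock 70 kDa protein LOC107862051, 3.90 and 3.57 for the small heat shock proteins LOC107867615 and LOC107867608, 3.83 for LOC107847347, 3.65 for the endochitinase LOC107859803, 3.27 for DnaJ LOC107867386, 3.08 for the acyltransferase LOC107870623, 3.06 for the HSP90-family gene LOC107863207, 2.46 for phytoene synthase LOC107868281 and 2.41 for the aquaporin LOC107859207. Smaller changes were found for pheophorbide a oxygenase LOC107847505 (1.37) and STAY-GREEN LOC107866321 (1.04), and for 3 genes not called at 60 DAA, beta-carotene hydroxylase 1 LOC107863219 (1.73), STAY-GREEN LIKE LOC107867750 (1.64) and pheophytinase LOC107854913 (1.32).

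Among genes higher in ripe yellow fruit, the change was -5.06 for kinase LOC107867973, -3.25 for LOC107842282, -3.01 for LOC107854232, -2.22 for photosystem II 22 kDa protein, -2.13 for violaxanthin de-epoxidase, -1.94 for LOC107868399, -1.61 for LOC107860163, -1.53 for prolycopene isomerase LOC107848237, -1.52 for chlorophyllase-2 LOC107853614 (not called at 60 DAA), -1.47 for LOC107840450, -1.35 for chlorophyll a-b binding protein 3C, -1.17 for LOC107851968 and -1.05 for zeaxanthin epoxidase. Genes named for the size of this change were, beside kinase LOC107867973, LOC107859760 (5.90), LOC107855780 (4.97), LOC107855776 (4.76), LOC107873510 (-4.99) and LOC107860678 (-3.72). Of 84 further genes named by list or accession, 55 had a call in this test, 32 toward red and 23 toward yellow.

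The pairs moved in opposite directions, each called and without overlap, in 0.928% of all genes. The difference between the pairs was not tested. Among named genes, LOC107840333 had 5.31 in the pungent and -1.92 in the non-pungent pair, LOC107862944 had 2.74 and -5.11, LOC107864633 had 1.94 and -4.32, LOC107868178 had 1.64 and -4.61, and LOC107847799 had 1.09 and -4.21.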

How the results depend on the processing

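Of the calls in ripe fruit, 684 toward red and 767 toward yellow, a fit of the ripe libraries alone, array weights, robust moderation, quantile normalisation, subtraction of library medians, leaving out genes at the floor and asking for no overlap all stayed within 1.5 times (471 to 737 and 548 to 765). Leaving out 1 library gave 660 to 722 and 689 to 818, where a Hab accession left with 1 library is assumed to vary like the rest. A test against a difference of 1 gave 283 and 277, accession means 1 apart 192 and 225, the adjusted p alone 5348 and 4858, and the pungent pair alone 1473 and 1573. For the change between stages, 1079 and 783, the test against 1 gave 287 and 91 and the adjusted p alone 5007 and 4243. The share of variance between libraries was 23.3% with genes scaled to unit variance and 4.10% over the 500 most variable genes, against 10.6%.

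Of 118 called named genes, all 118 kept their call in a fit of the ripe libraries, 117 after median subtraction and 106 after quantile normalisation, where LOC107875664, LOC107866321, LOC107847505 (values above), LOC107856010, LOC107878514, LOC107850240, LOC107845296, LOC107878126, LOC107839360, LOC107867836, LOC107855404 and LOC107864536 were lost (0.82 to 0.99 in size for the last 9). The 5 genes that lost it without some library had their smallest values there at 0.97 for LOC107840262, 0.92 for LOC107855074, 0.99 for LOC107850240, -0.89 for LOC107878514 and -0.90 for LOC107845460, the last 2 without the same Biq library. The sign turned in the pungent pair for LOC107839061 (-0.14), LOC107847799 (1.09), LOC107850933 (-0.28), LOC107854042 (-0.29), LOC107860051 (0.44), LOC107862944 (2.74), LOC107864633 (1.94), LOC107868178 (1.64) and LOC107873510 (0.99), and in the non-pungent pair for LOC107840333 (-1.92), LOC107858946 (0.46) and LOC107868117 (0.98). The cause was not tested. No paired analysis was possible because the columns of the table carry no replicate numbers. The table gives no depth, so no limit of detection was computed.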
